A study of Homo sapiens with 12 samples.

Results

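Caveolae are flask-shaped pits of the plasma membrane, and their protein coat was followed here through 7 genes: the caveolin genes CAV1 and CAV2, the cavin genes CAVIN1, CAVIN2 and CAVIN3, and the genes of 2 proteins that shape or hold the neck of the pit, EHD2 and PACSIN2. The genes were chosen by symbol in the probe annotation of the series, with their signal in the cultures known, and each was read by 1 probe set. They are 7 of 17687 named genes on the array. Because the signal in the 3 kinds of culture bore on their choice, their values are given below as a description, with standard errors and with no p-value.

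RNA came from derivatives of MCF-10A, a line of breast epithelial cells that does not form tumours, in 12 cultures on 12 whole-transcript arrays. The first group of 4 arrays held co-cultures of the line with the HER2 L755S mutation and the line with the PIK3CA E545K mutation, in which the HER2 mutation made up about 75% and the PIK3CA mutation 25% of the population at harvest. The second group held 4 cultures of the HER2 L755S line grown alone, and the third held 4 cultures of the PIK3CA E545K line grown alone. HER2 is a receptor tyrosine kinase and PIK3CA encodes the catalytic subunit of a lipid kinase downstream of such receptors. All cultures grew in medium with a physiologic level of EGF, without further treatment, and were harvested after 7 to 14 days. The labels describe 1 line per mutation, and unmutated MCF-10A was not analysed here. The effect of a mutation and other differences between these lines cannot be told apart. In the co-culture the RNA of both lines was measured together, so for a value between those of the lines, fewer cells of a line and less RNA per cell cannot be told apart. A value below both lines is given by no share of their cells at the levels they had alone, but the line in which a transcript changed cannot be told.

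Caveolin-1 is an integral membrane protein that inserts into the inner leaflet as a hairpin and assembles into discs that bind cholesterol. Cavins are soluble proteins that form an outer coat on these discs. Cavin-1 is needed for caveolae to form in most tissues, whereas cavin-2 and cavin-3 modify the shape or the trafficking of the pit. Caveolae flatten when the membrane is stretched and are known from endothelium, fat, muscle and fibroblasts, and in the breast from basal and myoepithelial cells.

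The arrays had median log2 signals of 6.41 to 6.49, and the median of the 612 negative control probe sets was 3.39 to 3.79. No pair of arrays held identical values. Of 12 listed markers of basal breast epithelium, 8 had a named probe set: KRT5, KRT14, CDH1, CDH3, EPCAM, ITGB4, ITGA6 and DSG3. Of these, CDH1 and EPCAM mark epithelium in general. All 8 were above the 95th percentile of the negative controls, taken here as the background level, on every array. KRT5, a basal keratin gene, had mean log2 signals of 17.13 in co-culture, 17.33 in the HER2 L755S line and 17.44 in the PIK3CA E545K line. The summed signal of these 8 on the log2 scale ran from 17.79 to 17.85 in co-culture, from 18.07 to 18.17 in the HER2 L755S line and from 18.11 to 18.19 in the PIK3CA E545K line, so every co-culture array was below every single-culture array, as for CAV1, CAV2 and CAVIN2 below. All 7 adipocyte markers were at or below that percentile on every array. So were all 9 endothelial markers in co-culture and the HER2 L755S line, and 8 of the 9 in the PIK3CA E545K line, with TIE1 above it on part of the arrays. Of 8 muscle markers only ACTA1 was above it, in all 3 groups. Of 7 fibroblast markers with a probe set, COL1A2, DCN and FAP were above it on every co-culture and PIK3CA E545K array, and COL1A2 and DCN in the HER2 L755S line. The summed fibroblast signal on the log2 scale ran from 11.34 to 11.84 in co-culture, from 10.96 to 11.33 in the HER2 L755S line and from 11.39 to 11.66 in the PIK3CA E545K line. Of 6 blood markers with a probe set, CD14 and CD68 were above it in co-culture and the PIK3CA E545K line, and 0 in the HER2 L755S line, while PTPRC and CD3E were at or below it on every array. The summed blood marker signal ran from 8.67 to 8.99 in co-culture, from 7.18 to 7.47 in the HER2 L755S line and from 8.58 to 8.94 in the PIK3CA E545K line. The part of these markers in the values below was not tested.

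The coat genes were bright in these cells, apart from CAVIN3. Averaged over all arrays, EHD2 lay at the 99.0th percentile and CAV1 at the 98.6th percentile of the named genes. CAVIN1 followed at the 84.3rd, PACSIN2 at the 82.6th, CAVIN2 at the 81.8th and CAV2 at the 80.8th percentile. CAVIN3 lay at the 46.7th percentile. These ranks describe probe-set signal, which also depends on the probes, so they do not order the transcripts by abundance. Testing required that a gene exceed the 30th percentile of all probe sets on 4 or more arrays, and all 7 genes did so on all 12.

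The single cultures and the co-culture showed 3 patterns among the 7 genes. CAV1, CAV2 and CAVIN2 had less signal in co-culture than in either line alone. CAVIN1 and EHD2 in co-culture were near the line with the lower signal. PACSIN2 in co-culture lay between the lines, as did the mean of CAVIN3, which was close to background.

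**Figure D1:**
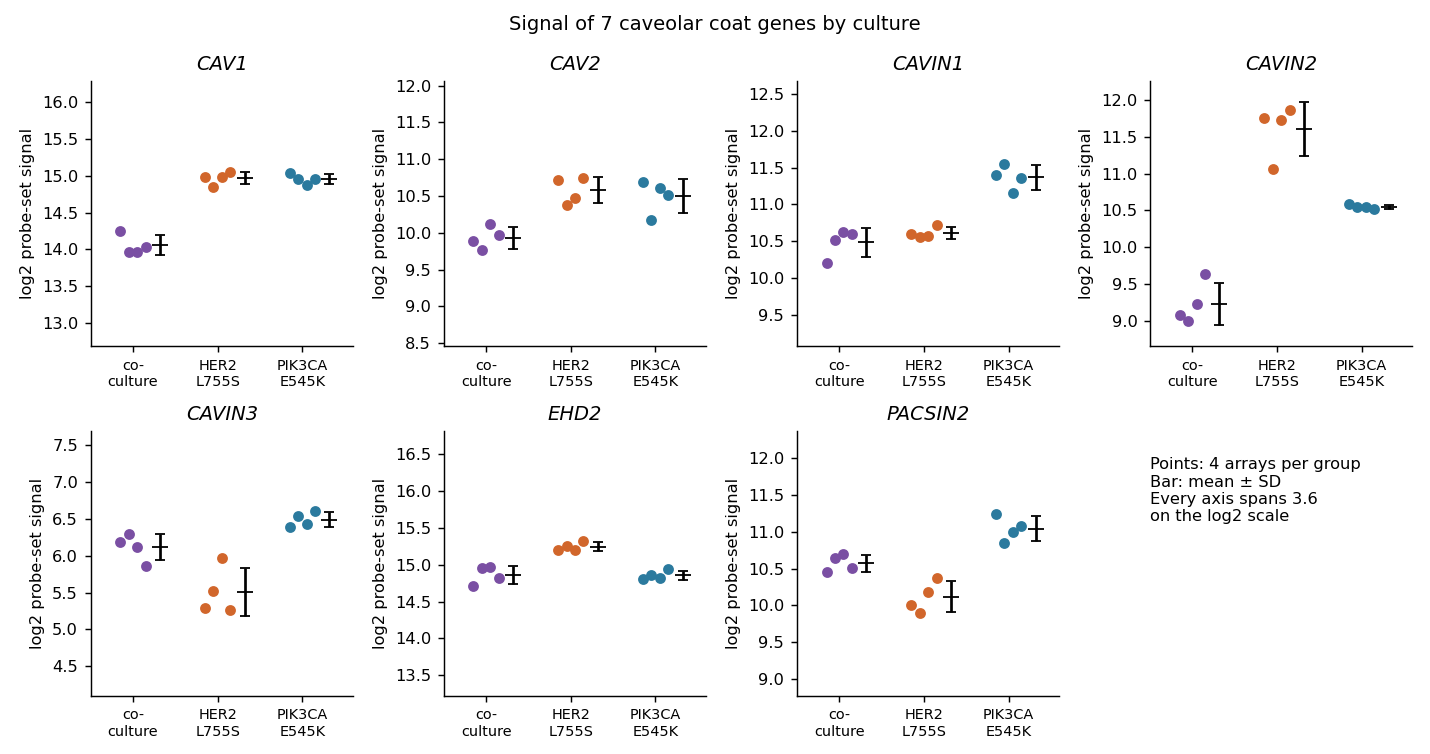
Log2 probe-set signal of the 7 coat genes on each array (points, 4 per group) with the mean and SD (bars), for co-culture, HER2 L755S and PIK3CA E545K cultures. Panels span equal widths of log2 signal around different levels. The co-culture points of CAV1, CAV2 and CAVIN2 lie below all points of both lines.

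CAV1 encodes caveolin-1, the main structural protein of caveolae outside striated muscle. Its log2 signal was 14.26, 13.97, 13.96 and 14.03 on the co-culture arrays. It was 14.98, 14.85, 14.98 and 15.06 in the HER2 L755S line and 15.03, 14.96, 14.88 and 14.96 in the PIK3CA E545K line. All co-culture arrays were below all 8 single-culture arrays, and the single cultures overlapped. CAV1 averaged 14.06 ± 0.14 in co-culture, 14.97 ± 0.09 in the HER2 L755S line and 14.96 ± 0.06 in the PIK3CA E545K line (SD, n = 4 each). The co-culture was 1.88-fold lower than the HER2 L755S line, with a log2 difference of -0.91 ± 0.07, and 1.87-fold lower than the PIK3CA E545K line, with a log2 difference of -0.90 ± 0.07 (moderated SE). Between the lines the log2 difference, HER2 L755S minus PIK3CA E545K, was 0.01 ± 0.07. Its sign turned in 2 of 22 alternative runs. Many of these runs, such as another filter or variance model, cannot change a difference of group means, and others leave out an array.

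CAV2 encodes caveolin-2, which forms hetero-oligomers with caveolin-1 and depends on it to leave the Golgi. On the co-culture arrays its log2 signal was 9.89, 9.76, 10.12 and 9.97. The HER2 L755S line had 10.72, 10.38, 10.47 and 10.75, and the PIK3CA E545K line 10.70, 10.18, 10.61 and 10.52. The highest co-culture array, 10.12, was just below the lowest single-culture array, 10.18, so the groups were apart by a narrow gap. The co-culture mean was 9.94 ± 0.15, against 10.58 ± 0.18 in the HER2 L755S line and 10.50 ± 0.23 in the PIK3CA E545K line (SD, n = 4 each). The log2 difference of the co-culture was -0.65 ± 0.12 from the HER2 L755S line and -0.56 ± 0.12 from the PIK3CA E545K line (moderated SE). Between the lines it was 0.08 ± 0.12, and its sign turned in 1 of 22 alternative runs, many of which cannot change it. The caveolin ratio within an array, CAV1 over CAV2, changed by -0.27 ± 0.13 on the log2 scale between co-culture and the HER2 L755S line and by -0.34 ± 0.16 between co-culture and the PIK3CA E545K line (SE), with arrays that overlapped in both comparisons.

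CAVIN2 encodes cavin-2, a phosphatidylserine-binding cavin that promotes membrane curvature and tubules. It differed most among the 7 genes between the groups. Its log2 signal was 9.07, 8.997, 9.23 and 9.63 on the co-culture arrays. The HER2 L755S line had 11.75, 11.06, 11.73 and 11.87, and the PIK3CA E545K line 10.58, 10.54, 10.55 and 10.53. The 3 groups did not overlap, with the HER2 L755S line highest and the co-culture lowest. The means were 9.23 ± 0.28 in co-culture, 11.60 ± 0.37 in the HER2 L755S line and 10.55 ± 0.02 in the PIK3CA E545K line (SD, n = 4 each). The co-culture was 5.17-fold lower than the HER2 L755S line (log2 difference -2.37 ± 0.15) and 2.49-fold lower than the PIK3CA E545K line (-1.32 ± 0.15). Between the lines, CAVIN2 was 2.07-fold higher in the HER2 L755S line (1.05 ± 0.15, moderated SE).

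The promoters of these 3 genes are shown because all 3 had less signal in co-culture than in both lines. Each stretch holds the 250 bases before the most upstream RefSeq start of the gene in build GRCh38.p14, written 5′ to 3′ on the strand of the gene. CAV2 and CAV1 are neighbours on chromosome 7 and are read in the same direction. The windows are chr7:116524759-116525008 on the plus strand for CAV1, chr7:116499488-116499737 on the plus strand for CAV2 and chr2:191847089-191847338 on the minus strand for CAVIN2. Capitals mark matches, on either strand, to the SP1 motif GGGCGG in CAV1 and CAV2 and to the TEAD motif GGAATG in CAVIN2.
CAV1: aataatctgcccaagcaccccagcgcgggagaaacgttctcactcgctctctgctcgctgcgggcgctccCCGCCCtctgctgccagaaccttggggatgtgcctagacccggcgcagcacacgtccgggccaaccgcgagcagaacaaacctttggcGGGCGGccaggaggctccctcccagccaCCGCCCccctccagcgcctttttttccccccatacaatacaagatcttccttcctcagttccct
CAV2: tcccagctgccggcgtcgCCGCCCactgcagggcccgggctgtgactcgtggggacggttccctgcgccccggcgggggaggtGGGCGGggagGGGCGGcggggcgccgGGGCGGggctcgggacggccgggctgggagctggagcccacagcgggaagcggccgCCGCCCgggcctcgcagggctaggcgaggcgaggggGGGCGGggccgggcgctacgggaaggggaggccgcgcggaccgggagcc
CAVIN2: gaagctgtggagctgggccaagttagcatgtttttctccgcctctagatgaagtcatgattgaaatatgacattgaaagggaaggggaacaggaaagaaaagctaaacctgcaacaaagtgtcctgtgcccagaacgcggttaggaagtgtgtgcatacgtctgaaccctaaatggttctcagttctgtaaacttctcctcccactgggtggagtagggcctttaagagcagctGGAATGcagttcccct

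The 3 windows differ in composition. The SP1 letters occurred 3 times in the CAV1 window, 6 times in the CAV2 window and 0 times in the CAVIN2 window. They occur in 42.6% of the 35116 RefSeq promoter windows of the same length. The windows of EHD2 and PACSIN2, genes not below both lines in co-culture, also held them, 1 and 2 times. The TEAD letters occurred 1 time, in the CAVIN2 window, beginning 16 bases before the start, and occur in 11.9% of all windows. The FOXO motif GTAAACA and the AP-1 motif TGANTCA, found in 2.98% and 6.57% of all windows, did not occur in any of the 3. No match overlapped another. A match describes letters only and says nothing of a bound factor.

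CAVIN1 encodes cavin-1, the cavin without which cells lose their caveolae. Its log2 signal was 10.20, 10.51, 10.62 and 10.60 in co-culture, 10.59, 10.55, 10.57 and 10.73 in the HER2 L755S line and 11.40, 11.55, 11.15 and 11.36 in the PIK3CA E545K line. The PIK3CA E545K line was apart from both other groups and higher, and the co-culture overlapped the HER2 L755S line. CAVIN1 averaged 10.48 ± 0.20 in co-culture, 10.61 ± 0.08 in the HER2 L755S line and 11.37 ± 0.17 in the PIK3CA E545K line (SD, n = 4 each). The log2 difference of the co-culture was -0.13 ± 0.11 from the HER2 L755S line and -0.88 ± 0.11 from the PIK3CA E545K line, a 1.84-fold lower signal. Between the lines it was -0.75 ± 0.11 (moderated SE). CAVIN1 and CAVIN2 thus differed in opposite directions between the lines. The ratio CAVIN2 over CAVIN1 within an array was higher in the HER2 L755S line than in the PIK3CA E545K line by 1.81 ± 0.18 on the log2 scale. It differed by -2.24 ± 0.20 between co-culture and the HER2 L755S line (SE), and arrays did not overlap in either comparison.

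CAVIN3 encodes cavin-3, a cavin that binds protein kinase C delta. Its signal was close to background. The log2 values were 6.19, 6.29, 6.12 and 5.87 in co-culture, 5.29, 5.52, 5.97 and 5.27 in the HER2 L755S line and 6.39, 6.54, 6.43 and 6.61 in the PIK3CA E545K line. They exceeded the 95th percentile of the negative controls on all 4 arrays of the PIK3CA E545K line and on 0 of the 8 others. The means were 6.12 ± 0.18 in co-culture, 5.51 ± 0.32 in the HER2 L755S line and 6.49 ± 0.10 in the PIK3CA E545K line (SD, n = 4 each). The measured log2 difference between the lines was -0.98 ± 0.17. It was 0.61 ± 0.17 between co-culture and the HER2 L755S line and -0.37 ± 0.17 between co-culture and the PIK3CA E545K line (moderated SE). No fold is given for CAVIN3, since no bound above 1 could be set. With the median of the negative controls subtracted, the difference between the lines was -1.29.

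EHD2 encodes an ATPase that assembles at the neck of caveolae and keeps them at the cell surface. The co-culture had log2 signals of 14.71, 14.96, 14.97 and 14.82, the HER2 L755S line 15.20, 15.26, 15.20 and 15.33, and the PIK3CA E545K line 14.80, 14.86, 14.83 and 14.94. The HER2 L755S line was above both other groups on every array, and the other groups overlapped. The means were 14.87 ± 0.12 in co-culture, 15.25 ± 0.06 in the HER2 L755S line and 14.86 ± 0.06 in the PIK3CA E545K line (SD, n = 4 each). The signal in the HER2 L755S line was 1.31-fold higher than in the PIK3CA E545K line (log2 difference 0.39 ± 0.07). The co-culture differed by -0.38 ± 0.07 from the HER2 L755S line and by 0.01 ± 0.07 from the PIK3CA E545K line (moderated SE). The sign of this last difference turned in 5 of 22 alternative runs, many of which cannot change it.

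PACSIN2 encodes syndapin-2, an F-BAR protein that bends the membrane at the neck of caveolae. Its log2 signal was 10.46, 10.65, 10.70 and 10.50 in co-culture, 10.01, 9.90, 10.19 and 10.38 in the HER2 L755S line and 11.25, 10.85, 11.001 and 11.08 in the PIK3CA E545K line. The 3 groups did not overlap, with the co-culture in the middle. PACSIN2 averaged 10.58 ± 0.12 in co-culture, 10.12 ± 0.21 in the HER2 L755S line and 11.04 ± 0.17 in the PIK3CA E545K line (SD, n = 4 each). It was 1.90-fold lower in the HER2 L755S line than in the PIK3CA E545K line, a log2 difference of -0.93 ± 0.12. The co-culture differed by 0.46 ± 0.12 from the HER2 L755S line and by -0.47 ± 0.12 from the PIK3CA E545K line (moderated SE).

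Comparing the lines grown alone asked how their caveolar coat genes differed. Of the 7 genes, 5 passed an adjusted p of 0.05 in limma over all genes, beside 59.4% of the 12774 genes tested. CAVIN2 and EHD2 were higher in the HER2 L755S line, and CAVIN1, CAVIN3 and PACSIN2 were lower, with CAVIN3 not above background in the HER2 L755S line. The arrays did not overlap for the same 5, beside 52.9% of all genes. The caveolin genes were the 2 that did not pass. The median difference was 0.01 over the 7 genes and 0.05 over all genes tested.

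**Figure D2:**
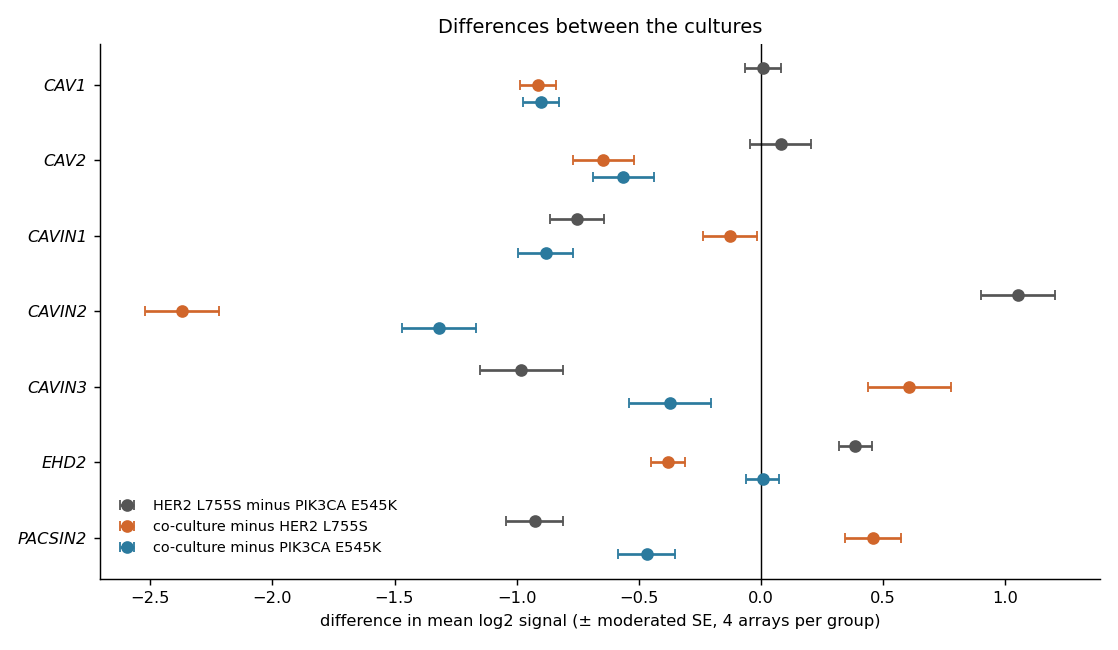
Differences in mean log2 signal of the 7 coat genes, with moderated standard errors, for HER2 L755S minus PIK3CA E545K, co-culture minus HER2 L755S and co-culture minus PIK3CA E545K (4 arrays per group). CAV1 lies at 0.01 between the lines and at -0.91 and -0.90 in the comparisons with co-culture.

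Comparing the co-culture with the HER2 L755S line set the mixture beside its majority line. Here 6 of the 7 genes passed, beside 50.9% of all genes. CAV1, CAV2, CAVIN2 and EHD2 were lower (26.0% of all genes), and CAVIN3 and PACSIN2 were higher (24.9% of all genes). CAVIN3 was not above background on any array of either group, and its arrays overlapped, so no direction is read from it. CAVIN1 did not pass. Arrays did not overlap for 5 of the 7, beside 44.4% of all genes. The median difference was -0.38 over the 7 genes and -0.05 over all genes.

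Against the PIK3CA E545K line, 5 of the 7 genes passed, beside 25.6% of all genes. All 5 were lower in co-culture, beside 14.6% of all genes, and they were CAV1, CAV2, CAVIN1, CAVIN2 and PACSIN2. Arrays did not overlap for 6 of the 7, the other being EHD2, beside 28.3% of all genes. The 6 include CAVIN3, which did not pass and was not above background on any co-culture array. The median difference was -0.56 over the 7 genes and -0.02 over all genes. Both comparisons share the co-culture arrays, so they are not independent of each other.

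In 3 of the 7 genes, CAV1, CAV2 and CAVIN2, the co-culture was below both lines with both comparisons past the threshold, beside 2.04% of all genes. The same 3 had every co-culture array below every single-culture array, beside 2.01% of all genes. In 0 of the 7 was the co-culture above both lines, beside 2.07% of all genes, and in 0 was every co-culture array above every single-culture array, beside 2.10%. These shares stand beside a set chosen with this signal known, and they are not a test of the set.

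**Figure D3:**
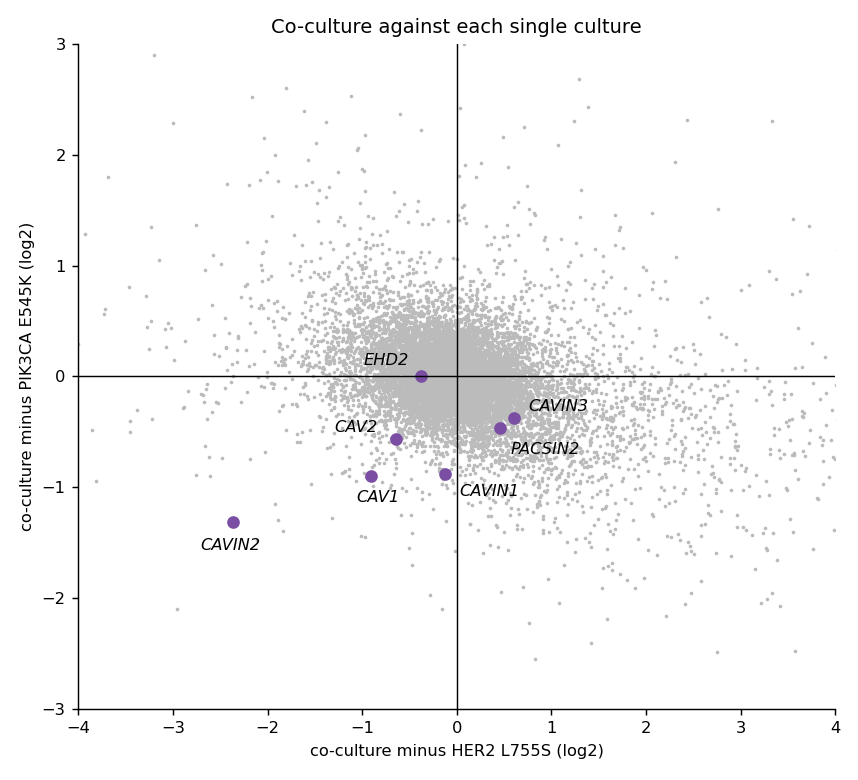
Log2 difference of co-culture minus HER2 L755S (horizontal) and of co-culture minus PIK3CA E545K (vertical) for the 7 coat genes (labelled) and the other tested genes (grey), of which 94 lie outside the plotted range. Both axes share the co-culture arrays. CAV1, CAV2 and CAVIN2 lie at the lower left, below both lines, with CAVIN2 at -2.37 and -1.32.

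The co-culture was also set beside a blend of the lines in the proportion of their cells, computed from unlogged means as 75% HER2 L755S and 25% PIK3CA E545K. This blend takes equal RNA from each cell. It is mostly HER2 L755S, yet over all genes the co-culture differed more often from that line. There 50.9% of genes passed, beside 25.6% against the PIK3CA E545K line. CAV1 had a log2 signal of 14.06 in co-culture and 14.96 in the blend, a difference of -0.91 ± 0.07. CAV2 differed by -0.63 ± 0.11 and CAVIN2 by -2.17 ± 0.14 (SE by the delta method). Since the caveolin genes had nearly the same mean in both lines, their blend hardly depends on the proportion, and CAVIN2 was below the lower line and so below any blend. Of the 12774 genes tested, 67 had a lower difference from the blend than CAVIN2 and 524 a lower one than CAV1.

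CAVIN1 differed from the blend by -0.36 ± 0.10 and EHD2 by -0.29 ± 0.06, whereas CAVIN3 differed by 0.29 ± 0.15 and PACSIN2 by 0.17 ± 0.10. In this comparison 5 of the 7 genes passed, all lower in co-culture, beside 40.8% of all genes in either direction and 22.3% lower. CAVIN3 and PACSIN2 did not pass. The differences of CAVIN1, EHD2, CAVIN3 and PACSIN2 from the blend all depended on the proportion. EHD2 in co-culture differed by 0.01 from the PIK3CA E545K line and by -0.38 from the HER2 L755S line. It would lie nearer to a blend with more PIK3CA E545K cells. For CAVIN1 these differences were -0.88 and -0.13, so it would lie nearer to a blend with more HER2 L755S cells. With a blend of 85% HER2 L755S cells the differences were 0.41 for CAVIN3 and 0.28 for PACSIN2, and both passed as higher in co-culture. With 65% they were 0.18 and 0.06. CAVIN3 was not above background on any co-culture or HER2 L755S array, so no direction is read from it.

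Within each array 4 other coat genes were also set against CAV1, as a difference of log2 signals. The ratio of CAVIN2 to CAV1 was lower in co-culture, with a difference of -1.46 ± 0.22 from the HER2 L755S line, without overlap, and of -0.42 ± 0.17 from the PIK3CA E545K line, with overlap (SE). The ratio of EHD2 to CAV1 was higher in co-culture than in either line, by 0.53 ± 0.14 against the HER2 L755S line and by 0.91 ± 0.14 against the PIK3CA E545K line (SE), with no overlap of arrays in either comparison. The ratio of PACSIN2 to CAV1 was higher in co-culture by 1.37 ± 0.14 against the HER2 L755S line, without overlap, and by 0.43 ± 0.14 against the PIK3CA E545K line, with overlap. CAVIN1 over CAV1 was higher in co-culture by 0.78 ± 0.17 against the HER2 L755S line and differed by 0.02 ± 0.18 from the PIK3CA E545K line, where arrays overlapped. The signal of CAV1 relative to the neck genes thus differed between the cultures by unequal amounts, which says nothing of the protein ratio.

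Of the 7 genes, only CAVIN2 had group means that ranged over at least 1 on the log2 scale. The tested genes most like it, by the root mean square difference over the 12 arrays after centring each gene, were ROR1 (0.26), RGS2 (0.30) and TRNP1 (0.35), against a median of 1.01 over 12767 genes. ROR1 encodes a receptor tyrosine kinase-like protein that is reported in the literature to scaffold cavin-1 and caveolin-1. Its mean log2 signal was 9.03 ± 0.17 in co-culture, 11.15 ± 0.15 in the HER2 L755S line and 10.51 ± 0.10 in the PIK3CA E545K line (SD, n = 4 each). The order it shares with CAVIN2 follows from how ROR1 was picked. RGS2, a regulator of G protein signalling, had means of 9.99 in co-culture, 11.91 in the HER2 L755S line and 11.14 in the PIK3CA E545K line. Within the coat, CAV1 was closest to CAV2 (0.22), with CAV2 and EHD2 at 0.29 and CAVIN1 and PACSIN2 at 0.30, and CAVIN2 and PACSIN2 were far apart (1.21). The median of 1.01 holds for CAVIN2 only, and genes that vary little are close to each other for that reason alone. The group means of CAV2 and EHD2 ranged over 0.65 and 0.39. Distances to CAVIN3 are not given, since it was not above background on 8 of 12 arrays.

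The close relatives of the coat proteins divided by expression. CAVIN4, EHD3 and PACSIN1, known mainly from muscle or nerve, did not pass the filter on low signal, with group means of 3.69 to 4.10, 2.97 to 3.70 and 3.74 to 3.89. CAV3, the muscle caveolin, was tested but not above background on any array. Its means were 5.24 in co-culture, 5.36 in the HER2 L755S line and 5.44 in the PIK3CA E545K line. EHD4 and EHD1, relatives of EHD2 that act in endosomal recycling, fell in the HER2 L755S line against the PIK3CA E545K line, with log2 differences of -2.20 ± 0.10 and -1.83 ± 0.15 (SE, limma adjusted p 9.42e-15 and 2.13e-10), whereas EHD2 itself was higher there. In co-culture EHD4 was at 10.59 ± 0.09, against 9.27 ± 0.11 in the HER2 L755S line and 11.47 ± 0.11 in the PIK3CA E545K line (SD, n = 4 each), in the middle and with no overlap of arrays. PACSIN3 did not pass between the lines (0.25 ± 0.13, limma adjusted p 0.102). Of the 4 relatives tested, 0 rose and 2 fell in this comparison (beside 59.4% of all genes in either direction).

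Other membrane genes passed the test in both directions between the lines, as the plot of 6 gene lists shows, and the share of each list that passed is given beside 59.4% of all genes. The genes named from them passed an adjusted p of 0.05 in limma. Their differences are on the log2 scale. Of 13 dynamins and actin links of caveolae, 3 rose and 5 fell in the HER2 L755S line against the PIK3CA E545K line (61.5% in all), with a median of -0.12 beside 0.05 for all genes. FNBP1L, an F-BAR gene, rose by 0.85, ROCK2 by 0.58 and FNBP1 by 0.50. ABL2, which encodes a kinase of the ABL family linked to actin, differed by -1.57, RHOC by -1.54 and DIAPH1 by -0.70. Of 15 receptors and signalling proteins reported in caveolae, 6 rose and 5 fell (73.3% in all), with a median of 0.15. INSR, the insulin receptor gene, was at 7.53 in the HER2 L755S line and not above background on any PIK3CA E545K array, so it was at least 2.25-fold higher (limma adjusted p 6.30e-08). PTCH1, the Hedgehog receptor, rose by 2.16, with 3 of 4 PIK3CA E545K arrays above background, and ROR1 rose by 0.64. SCARB1, the HDL receptor, differed by -2.27, FYN by -1.18 and TGFBR2 by -1.14.

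Flotillins form plasma membrane domains apart from caveolae, and their SPFH relatives include proteins of the endoplasmic reticulum (erlins) and of mitochondria (prohibitins and STOML2). Of 8 such genes tested, 3 rose and 3 fell in the HER2 L755S line (75.0% in all), with a median of -0.06. STOM, the stomatin gene, rose by 2.00, FLOT1 by 0.87 and ERLIN1 by 0.51, against -0.99 for ERLIN2, -0.82 for STOML2 and -0.76 for PHB1. Of 15 genes of the clathrin coat, the other large endocytic coat, 3 rose and 6 fell (60.0% in all), with a median of -0.06. CLTB, a clathrin light chain gene, differed by -1.77, HIP1 by -0.94 and AP2S1 by -0.91, and FCHO2 rose by 0.43 and EPS15 by 0.41. CLTCL1 rose by 0.67, but it was above background on only 1 of 4 HER2 L755S and 2 of 4 PIK3CA E545K arrays. Of 15 enzymes of sphingomyelin and ceramide, lipids enriched in caveolae, 4 rose and 5 fell (60.0% in all), with a median of -0.15. CERS6, a ceramide synthase gene, rose by 2.48, CERS5 by 0.72 and SMPD1 by 0.48. SGMS2, which encodes the sphingomyelin synthase of the plasma membrane, differed by -2.42, SPTLC2 by -0.63 and DEGS1 by -0.52.

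**Figure D4:**
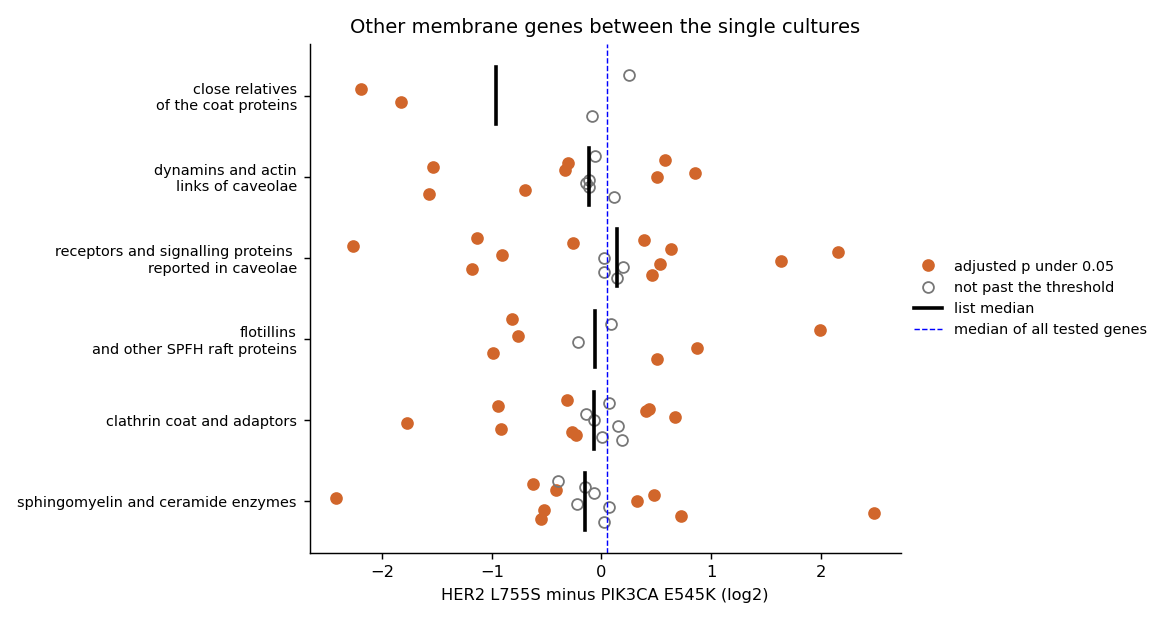
Log2 difference of HER2 L755S minus PIK3CA E545K for the tested genes of 6 lists (filled points, adjusted p under 0.05 in limma; open points, not past it), with the list median (black bar) and the median of all tested genes (dashed line). Called genes lie on both sides of 0 in every list except the close relatives, where EHD4 and EHD1 lie at -2.20 and -1.83.

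Of the 70 genes tested over these lists, 5 fell in co-culture against both lines (7.14%, beside 2.04% of all genes) and 1 rose against both (1.43%, beside 2.07% of all genes). Those that fell were ROR1, FCHO2, ITGB1, BSG and TRIP10, and CLTA rose. These genes were singled out by the same comparisons, from lists chosen with earlier results of these data known. The shares are therefore not a test of the lists. The log2 difference of ROR1 was -2.11 from the HER2 L755S line and -1.47 from the PIK3CA E545K line. FCHO2, which encodes an F-BAR protein of clathrin pits, differed by -0.90 from the HER2 L755S line and by -0.47 from the PIK3CA E545K line. ITGB1, the integrin beta-1 gene, differed by -0.57 and -0.55, TRIP10 by -0.33 and -0.39 and BSG by -0.22 and -0.20 from the same lines. CLTA, a clathrin light chain gene, differed by 0.26 and 0.41. Against the HER2 L755S line it passed only narrowly, and the arrays overlapped.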

How the data were processed

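The authors deposited 1 log2 signal per probe set and array. The submitters' processing notes name the Transcriptome Analysis Console, without a version. Background correction, summarization and normalization are not given in the sources used here. Labelling started from 5 µg of RNA, per the labels' protocols.

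Of 24351 probe sets, 17709 were named for 1 gene symbol, 0 for several and 6642 for none in the series' annotation. Where a gene had several probe sets (20 genes), its brightest one stood for it. The 3 groups were compared over 12 arrays with limma 3.58.1 (R 4.3.3), moderated variances, a trend with signal and Benjamini-Hochberg adjustment over all genes. The fit was also run on simulated data with independent noise and few or no changed genes. Many genes differ in the real data, so that run does not vouch for the counts above. The number of arrays limits the precision.

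Members and lists were chosen with earlier results of these data known. Named list genes were up to 3 in each direction with the largest differences between the lines, past the threshold and without overlap, plus the close relatives. The list genes beyond both lines in co-culture were singled out after their values were seen. Replicate numbers were not used to pair the arrays in the main fit, since same-numbered arrays did not deviate together. This does not tell whether same-numbered cultures were handled together. Alternatives covered the filter, scaling, variance model, replicate block, arrays in the fit, probe-set choice, blend and background.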

Additional observations from a re-analysis of the deposited data

How the results depend on the processing

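Over the alternatives run, genes past the threshold numbered 6568 to 7838 between the lines, 5816 to 6795 for co-culture against the HER2 L755S line, 2771 to 3760 against the PIK3CA E545K line and 4413 to 5890 against the blend. Leaving out 1 array at a time kept the count of coat genes past the threshold at 5, 6 and 5 in these pairwise comparisons, and at 5 to 6 against the blend, where CAVIN3 passed without HER2 L755S replicate 3. Of 619 recomputed differences of the coat genes, 616 moved by less than 1 SD. Many of them could not move. The filter, the variance model and the replicate block do not enter a difference of group means, nor do arrays of a group not compared. The 3 that moved further were CAV1 (0.10) and EHD2 (0.47) between the lines with each array centred on its median, and CAVIN3 (-1.29) with the negative control median subtracted. The filter at the 50th percentile left CAVIN3 untested. Same-numbered arrays did not deviate together (correlation across genes -0.04 to 0.06 over 12 pairs). With the replicate number as a block, 7602, 6508, 3333 and 5262 genes passed in the same order, and the coat genes past the threshold were as many as without it. Of 510 recomputed list counts, 15 moved by over 1.5 times, in 4 counts that are not used above. Against the PIK3CA E545K line, flotillin relatives went to 1 called gene (2 otherwise) and sphingolipid enzymes to 2 or 3 (1 otherwise). Against the blend, close relatives went to 1 (2 otherwise) and flotillin relatives to 5 (3 otherwise).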
